A study of Homo sapiens with 11 samples.

Results

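The replication checkpoint genes described here are ATM, ATR, CHEK1, CHEK2, WEE1, CDC25A, CLSPN, TOPBP1, TIMELESS and TIPIN. A gene counted as measured where a transcript cluster, the group of probes read together for a locus, was annotated with that symbol alone. By this rule 9 of the 10 listed genes were measured, among 22109 genes of the array. ATM was the exception, since its cluster is listed for ATM and NPAT together. Each of the 9 had a single such cluster, and all 9 were among the 12147 genes tested, whose highest log2 level reached 3.80.

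RNA from MV4-11, an established acute myeloid leukaemia line with a KMT2A rearrangement, was read on 11 Affymetrix arrays, 1 per condition. The 8 knockdown arrays came from cells transduced with shRNAs and kept for 24 hours in 3 µM doxycycline. Their labels are shRUNX1+shRUNX2+shRUNX3 (the triple array), shRUNX1+shRUNX3, shRUNX1+shRUNX2, shRUNX2+shRUNX3, shRUNX1, shRUNX2, shRUNX3 and the luciferase control shLuc. The other 3 arrays hold cells treated for 6 hours with 1 µM Chb-M', 1 µM Chb-50 or DMSO, with no shRNA or doxycycline named. Both compounds belong to the alkylating PIP conjugates of the study, whose design asked how expression changes genome-wide after RUNX knockdown or these agents. Time, shRNA and doxycycline all differ between the knockdown and the compound arrays, so the 2 sets are compared only with their own control array.

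When a replication fork stalls, single-stranded DNA coated with RPA recruits ATR, a kinase that TOPBP1 activates. Claspin (CLSPN) then brings CHEK1 to ATR for phosphorylation, helped by the fork protection pair TIMELESS and TIPIN, while ATM and CHEK2 form the arm that answers DNA double-strand breaks. CHEK1 restrains CDC25A, the phosphatase that activates cyclin-dependent kinases, and WEE1 holds the same kinases inactive by phosphorylating them. Several of these genes are transcribed mainly as cells enter and pass S phase, and leukaemia cells with high replication stress are known to depend on ATR and CHEK1.

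The targeted genes were read first. RUNX2 lay at 5.82 (triple), 5.70 (shRUNX1+shRUNX2), 5.56 (shRUNX2+shRUNX3) and 5.72 (shRUNX2) on the arrays with its shRNA, and between 6.00 and 6.30 on those without. RUNX3 lay between 7.65 and 7.87 on the arrays with its shRNA, against 7.70 on the array labelled shRUNX1 and 8.15 to 8.37 on the other 3 without. RUNX3 was thus as low on the array labelled shRUNX1 as on arrays with the RUNX3 shRNA. The RUNX1 and RUNX3 shRNA estimates over all knockdown arrays are also given without that array. So is the RUNX1 shRNA contrast among arrays without the RUNX3 shRNA. By contrast, the RUNX1 by RUNX3 term and the RUNX3 shRNA contrast among arrays with the RUNX1 shRNA are given only with it. RUNX1 is listed only on a cluster shared with LOC100506403, which lay between 3.96 and 4.45 on the knockdown arrays, so the RUNX1 knockdown could not be read by itself. Of the myeloid markers listed, all 8 with a cluster reached the level filter, whereas 1 of 4 T cell, 1 of 3 B cell, 1 of 3 erythroid and 1 of 4 epithelial markers did. CD3E, MS4A1, HBB and EPCAM stayed below it on every array.

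Among the 8 knockdown arrays, CHEK1, CLSPN, CDC25A, TIMELESS, WEE1, TOPBP1 and TIPIN were lowest on the 2 arrays that joined the RUNX1 and RUNX3 shRNAs. The share of all genes tested with that order was not counted. On a linear scale CHEK1 was at 39.5%, CLSPN at 40.5%, CDC25A at 43.3%, TIMELESS at 52.7%, WEE1 at 57.4%, TOPBP1 at 64.5% and TIPIN at 73.8% of shLuc on the shRUNX1+shRUNX3 array. On the triple array the same genes were at 52.9% (CHEK1), 48.8% (CLSPN), 49.7% (CDC25A), 60.1% (TIMELESS), 70.5% (WEE1), 73.5% (TOPBP1) and 71.5% (TIPIN). ATR stood apart at 95.9% and 96.3%, and CHEK2 at 84.5% and 108.5%. All these single-array differences share the shLuc array. At least 1.5-fold lower than shLuc on the shRUNX1+shRUNX3 array were 6 of the 9 genes, against 4.96% of all genes tested, and on the triple array 4 of 9, against 4.27%. None of the 9 was past 1.5-fold in either direction on the other RUNX shRNA arrays, where the share of genes tested past it was 3.9% (shRUNX1+shRUNX2), 1.49% (shRUNX2+shRUNX3), 2.34% (labelled shRUNX1), 1.44% (shRUNX2) and 1.54% (shRUNX3).

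**Figure D1:**
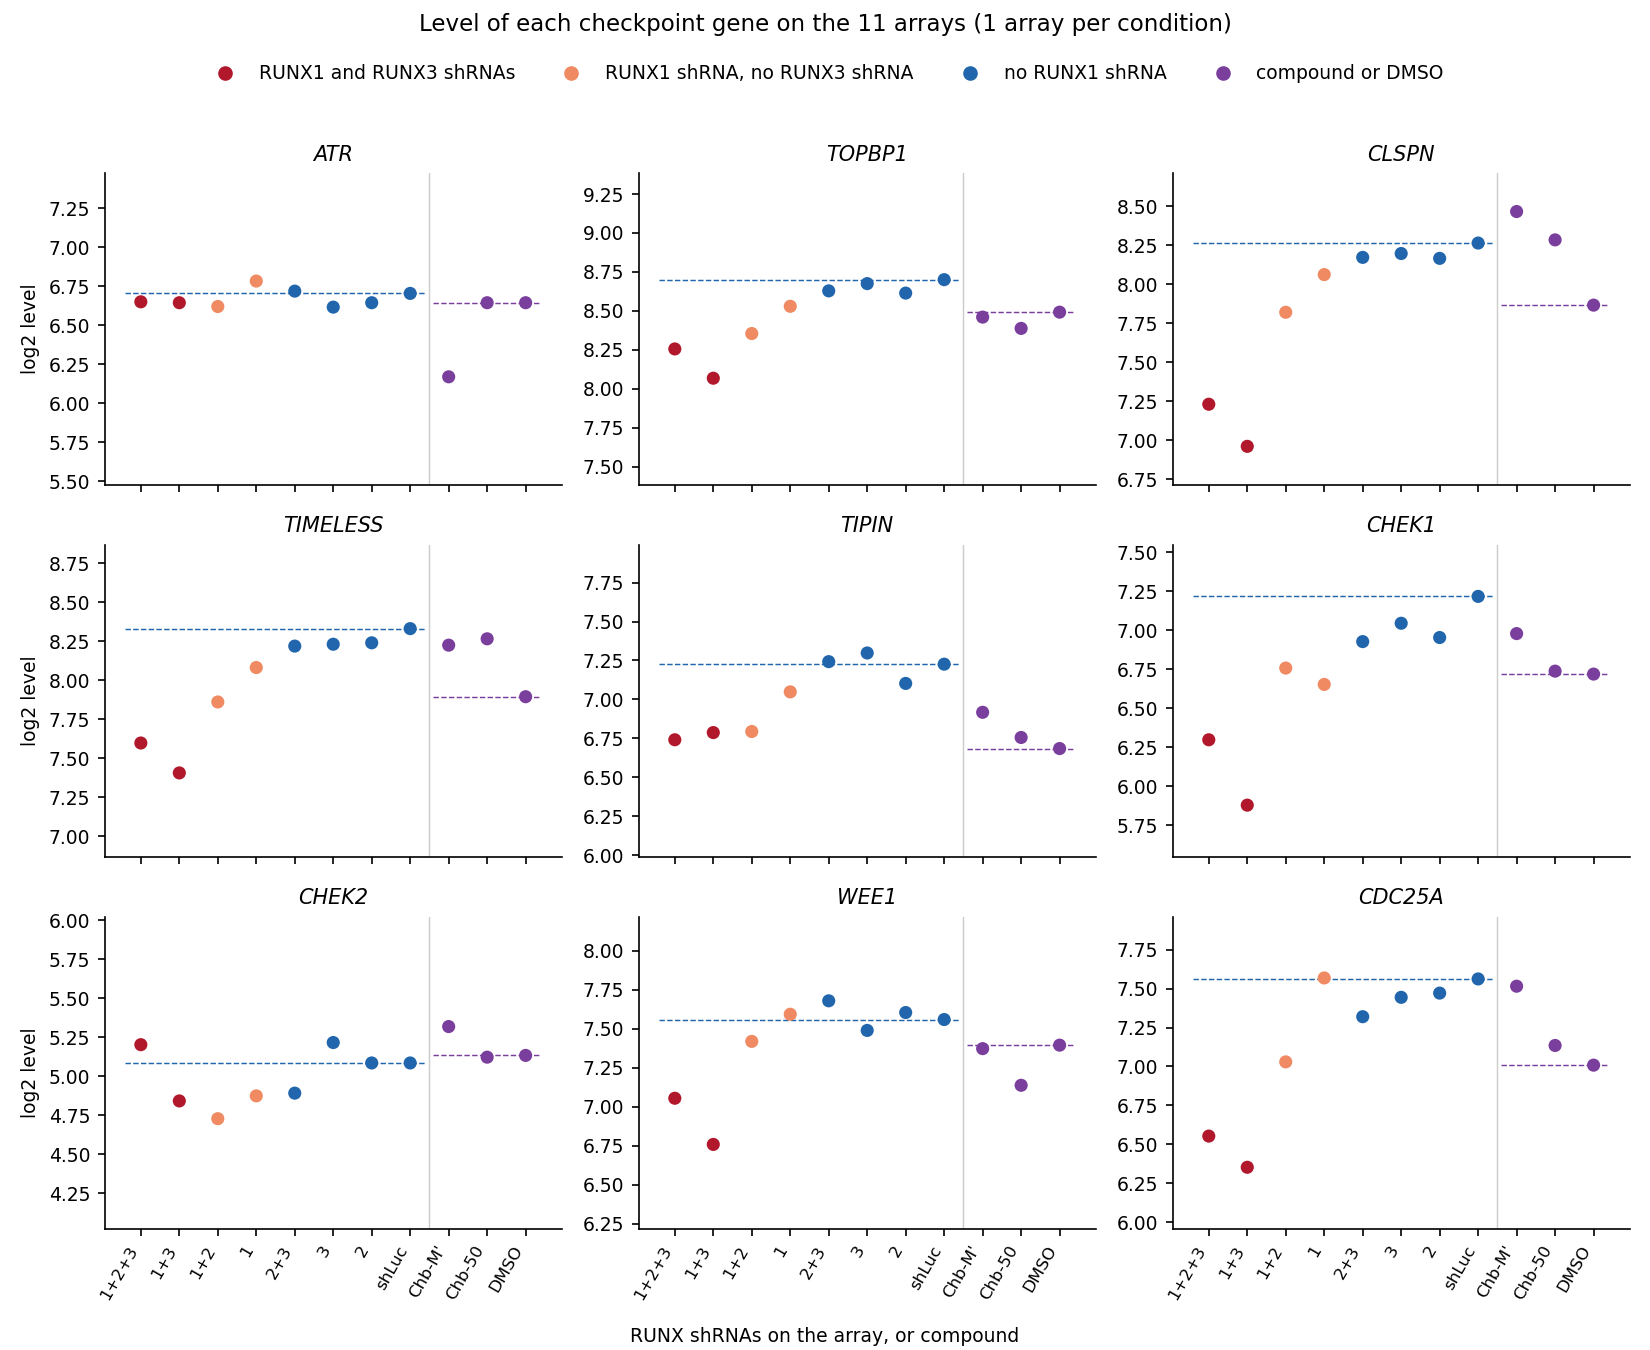
Log2 level (vertical axis) of the 9 measured checkpoint genes, 1 panel per gene with its own axis, on each of the 11 arrays, 1 point per array and no error bars, with dashed lines at the shLuc and DMSO levels. In the panels of CHEK1, CLSPN, CDC25A, WEE1 and TIMELESS the shRUNX1+shRUNX3 and triple arrays are the lowest of the knockdown points, whereas in the ATR panel the Chb-M' array is the lowest at 6.17.

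Among the kinases that carry the signal, CHEK1 was the most variable. Its level was 5.88 on shRUNX1+shRUNX3, 6.30 on the triple array, 6.65 on the array labelled shRUNX1 and 6.76 on shRUNX1+shRUNX2, against 7.04 on shRUNX3, 6.95 on shRUNX2, 6.93 on shRUNX2+shRUNX3 and 7.22 on shLuc. All 4 arrays with the RUNX1 shRNA were therefore below all 4 without it. ATR, the kinase at the head of the pathway, was at 6.64 on shRUNX1+shRUNX3, 6.65 on the triple array, 6.78 on the array labelled shRUNX1 and 6.62 on shRUNX1+shRUNX2, against 6.62 on shRUNX3, 6.64 on shRUNX2, 6.72 on shRUNX2+shRUNX3 and 6.70 on shLuc. The ATR groups overlapped across their whole range. The ATR value 6.6437 recurs on 4 of the 11 arrays (shRUNX2, shRUNX1+shRUNX3, DMSO and Chb-50), as some value does in 7.03% of genes tested. The reason was not tested.

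In the ATM arm, CHEK2, the kinase downstream of ATM, was at 4.84 on shRUNX1+shRUNX3, 5.20 on the triple array, 4.87 on the array labelled shRUNX1 and 4.73 on shRUNX1+shRUNX2, against 5.22 on shRUNX3, 5.09 on shRUNX2, 4.89 on shRUNX2+shRUNX3 and 5.09 on shLuc. The triple array was thus among the highest and the groups overlapped. The cluster listed for ATM and NPAT ran from 7.12 on the array labelled shRUNX1 to 7.51 on shRUNX1+shRUNX2, with shRUNX1+shRUNX3 at 7.34, the triple array at 7.33 and shLuc at 7.42. Those values cannot be given to ATM alone.

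The adaptor and fork genes separated the arrays as CHEK1 did. CLSPN, which links ATR to CHEK1, was at 6.96 on shRUNX1+shRUNX3, 7.23 on the triple array, 8.06 on the array labelled shRUNX1 and 7.82 on shRUNX1+shRUNX2, against 8.17 to 8.20 on the other RUNX shRNA arrays and 8.26 on shLuc. TIMELESS was at 7.41 on shRUNX1+shRUNX3, 7.60 on the triple array, 8.08 on the array labelled shRUNX1 and 7.86 on shRUNX1+shRUNX2, against 8.22 to 8.24 on the other RUNX shRNA arrays and 8.33 on shLuc. Its partner TIPIN was at 6.79 on shRUNX1+shRUNX3, 6.74 on the triple array, 7.05 on the array labelled shRUNX1 and 6.79 on shRUNX1+shRUNX2, against 7.10 to 7.30 on the other RUNX shRNA arrays and 7.23 on shLuc. In all 3 genes the 4 arrays with the RUNX1 shRNA were below the 4 without. TOPBP1, the activator of ATR, behaved the same way over a narrower range, at 8.07 on shRUNX1+shRUNX3, 8.26 on the triple array, 8.53 on the array labelled shRUNX1 and 8.36 on shRUNX1+shRUNX2, against 8.61 to 8.68 on the other RUNX shRNA arrays and 8.70 on shLuc. So complete a separation, with all 4 lower, held for 5 of the 9 genes (CHEK1, CLSPN, TIMELESS, TIPIN and TOPBP1), against 4.73% of all genes tested. Without the array labelled shRUNX1, the 3 remaining arrays were all below the 4 without the RUNX1 shRNA for 7 of the 9 genes, CDC25A and WEE1 added, against 12.3% of all genes tested.

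The regulators of the cyclin-dependent kinases differed from the adaptors in that the array labelled shRUNX1 was not below shLuc. CDC25A was at 6.35 on shRUNX1+shRUNX3, 6.55 on the triple array and 7.03 on shRUNX1+shRUNX2, but at 7.57 on the array labelled shRUNX1, against 7.32 to 7.47 on the other RUNX shRNA arrays and 7.56 on shLuc. WEE1 was at 6.76 on shRUNX1+shRUNX3, 7.06 on the triple array, 7.42 on shRUNX1+shRUNX2 and 7.59 on the array labelled shRUNX1, against 7.49 to 7.68 on the other RUNX shRNA arrays and 7.56 on shLuc. In both genes the array labelled shRUNX1 was at or above shLuc, and the groups with and without the RUNX1 shRNA overlapped.

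The bases just upstream of the annotated starts of 4 of these genes are shown because CLSPN, CDC25A and TOPBP1 were lower on the same arrays while ATR was not. They are the 250 bases before each start in RefSeq (GRCh38.p14), all on the minus strand and written 5′ to 3′. The windows are chr1:35769979-35770228 for CLSPN, chr3:48188418-48188667 for CDC25A, chr3:133661942-133662191 for TOPBP1 and chr3:142578734-142578983 for ATR. Capitals mark exact matches on either strand to TGTGGT or TGCGGT (RUNX), to TTTCCCGC, TTTCGCGC, TTTGCCGC or TTTGGCGC (E2F) and to CCAAT, which reads ATTGG on the other strand.
CLSPN: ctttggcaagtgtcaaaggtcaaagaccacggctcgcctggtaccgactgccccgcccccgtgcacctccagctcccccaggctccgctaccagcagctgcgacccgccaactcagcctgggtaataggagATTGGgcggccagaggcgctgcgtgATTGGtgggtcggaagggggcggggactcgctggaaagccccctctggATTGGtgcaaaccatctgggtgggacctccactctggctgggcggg
CDC25A: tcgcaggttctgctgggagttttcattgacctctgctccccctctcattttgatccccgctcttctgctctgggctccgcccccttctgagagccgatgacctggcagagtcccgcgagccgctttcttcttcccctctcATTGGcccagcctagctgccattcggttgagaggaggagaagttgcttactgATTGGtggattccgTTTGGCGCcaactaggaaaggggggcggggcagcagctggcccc
TOPBP1: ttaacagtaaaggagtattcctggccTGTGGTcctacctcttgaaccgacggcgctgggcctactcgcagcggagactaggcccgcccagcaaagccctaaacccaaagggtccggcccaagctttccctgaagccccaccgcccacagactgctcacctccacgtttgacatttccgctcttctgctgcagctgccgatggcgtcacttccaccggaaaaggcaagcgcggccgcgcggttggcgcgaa
ATR: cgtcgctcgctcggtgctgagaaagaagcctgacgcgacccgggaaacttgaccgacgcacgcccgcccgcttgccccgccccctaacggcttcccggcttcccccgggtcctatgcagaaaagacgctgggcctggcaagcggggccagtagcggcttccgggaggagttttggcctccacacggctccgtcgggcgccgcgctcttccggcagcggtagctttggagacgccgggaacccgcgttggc
CLSPN held 3 CCAAT letters, the nearest 46 bases before the start. CDC25A held 2, and an E2F word between 44 and 37 bases before it. TOPBP1 held a RUNX word between 224 and 219 bases before the start, and ATR held none of the words. The background was 27305 windows, the first listed for each gene. Of these, 16.1% held a RUNX word, 2.79% an E2F word and 33.0% CCAAT. For the listed genes every window was read, 13 in all, so matches in later windows have no matching share. No marked words overlap in the 4 windows shown. In all, 9 of the 10 listed genes had a window. Among the unprinted windows, those of ATM, CHEK1, CHEK2 and TIMELESS held CCAAT and neither of the other motifs. CHEK2, whose groups overlapped as those of ATR did, held 3 CCAAT letters, as many as CLSPN. The first TIPIN window held CCAAT, and a second TIPIN start held a pair of overlapping E2F words. A match describes letters only, and binding was not measured on these arrays.

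In the additive fit over the 8 knockdown arrays, most checkpoint genes were estimated lower with the RUNX1 shRNA but none passed the threshold of an adjusted p of 0.05. The estimates were lowest for CLSPN at -0.68 (SE 0.17), CHEK1 at -0.64 (SE 0.14), CDC25A at -0.57 (SE 0.17) and TIMELESS at -0.52 (SE 0.11). WEE1, TIPIN and TOPBP1 followed at -0.38, -0.37 and -0.35, CHEK2 was at -0.16 and ATR at 0.00. Limma's Benjamini-Hochberg adjusted p was 0.0933 for TIPIN, 0.0944 for TIMELESS, 0.0995 for CHEK1 and 0.106 to 0.189 for TOPBP1, CLSPN, CDC25A and WEE1. The fit called 0 of 12147 genes (0.0%), although 2580 had an unadjusted p under 0.05. Unadjusted, 7 of the 9 checkpoint genes were lower, against 10.0% of all genes tested. The median of the 9 estimates was -0.38, against 0.01 over all genes tested. Without the array labelled shRUNX1, 6 of the 9 were called lower (WEE1, CDC25A, CLSPN, TOPBP1, TIMELESS and TIPIN, with limma adjusted p from 0.0344 to 0.0443) among 817 genes called. The labels name 1 array per condition and no separate cultures. Every p-value here therefore reflects how much these arrays vary, a spread that may be technical. In the additive fit the spread also holds any departure from additive shRNA terms. The RUNX1 by RUNX3 departure, given below, was estimated at -0.82 for CLSPN and -0.71 for CDC25A and was not called.

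The RUNX2 shRNA left the checkpoint genes near their level without it. Its estimates ran from -0.14 for CDC25A to 0.09 for WEE1, with a median of -0.03. The limma fit called 0 genes (0.0%). None of the 593 genes (4.88%) that reached an unadjusted p under 0.05 was a checkpoint gene. For the RUNX3 shRNA the estimates were -0.49 for CDC25A, -0.44 for CLSPN, -0.36 for CHEK1, -0.30 for WEE1 and -0.27 for TIMELESS, and the median was -0.27. Here too limma called 0 genes (0.0%), while 1141 had an unadjusted p under 0.05. CDC25A, CLSPN, CHEK1 and TIMELESS were among those unadjusted, 4 of 9 against 4.82% of all genes that were lower. Without the array labelled shRUNX1 the estimates were -0.30 for CDC25A, -0.28 for CLSPN, -0.31 for CHEK1, -0.16 for WEE1 and -0.17 for TIMELESS, and none of the 9 was called. In the fit with a RUNX1 by RUNX3 term, whose contrasts were chosen after seeing the data, the RUNX3 shRNA among the 4 arrays with the RUNX1 shRNA gave -0.84 for CDC25A, -0.85 for CLSPN, -0.62 for CHEK1, -0.60 for WEE1 and -0.47 for TIMELESS. Limma called 0 genes there (0.0%), and 6 of the 9 were lower unadjusted, against 9.3% of genes tested. Among the 4 arrays without the RUNX1 shRNA the same genes were at -0.13 (CDC25A), -0.03 (CLSPN), -0.10 (CHEK1), 0.00 (WEE1) and -0.06 (TIMELESS), with 0 genes called by limma (0.0%) and none of the 9 among the 774 with an unadjusted p under 0.05. The additive estimates average these.

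The matched arrays show how much the RUNX1 shRNA difference varied with what else the cells carried. CLSPN was lower by 1.24 with the RUNX1 shRNA added to the RUNX3 shRNA and by 0.94 with it added to both others, but by 0.20 beside shLuc and 0.35 beside the RUNX2 shRNA. For CDC25A the log2 differences were -1.09 beside the RUNX3 shRNA and -0.77 beside both others, and 0.01 beside shLuc and -0.44 beside the RUNX2 shRNA. WEE1 gave -0.73 and -0.62 where the RUNX3 shRNA was present, and 0.03 and -0.19 where it was not. CHEK1 had a less even set, at -1.17 and -0.63 with the RUNX3 shRNA, and -0.56 and -0.20 without. ATR stayed between -0.07 and 0.08 in all 4 pairs.

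Among the 4 arrays that carry the RUNX3 shRNA, 7 of the 9 checkpoint genes fell with the RUNX1 shRNA in a limma fit with a RUNX1 by RUNX3 term, a contrast chosen after seeing the data. That fit called 1075 of 12147 genes (8.85%), with 4.95% of genes tested called lower. CLSPN fell by 1.09 on the log2 scale (SE 0.13, limma adjusted p 0.0141), CDC25A by 0.93 (adjusted p 0.0286), CHEK1 by 0.90 (adjusted p 0.0297) and TIMELESS by 0.72 (adjusted p 0.0203). WEE1 fell by 0.68 (adjusted p 0.0291), TIPIN by 0.51 (adjusted p 0.0236) and TOPBP1 by 0.49 (adjusted p 0.0408) in the same limma fit. CHEK2 at -0.03 and ATR at -0.02 were not called, and the 95% interval for ATR ran from -0.23 to 0.19. Among the 4 arrays without the RUNX3 shRNA, limma called 0 genes (0.0%) and 931 had an unadjusted p under 0.05. TIMELESS at -0.31 and TIPIN at -0.24 were among them, 2 of the 9 against 3.38% of genes tested that were lower, and CLSPN was at -0.27. Without the array labelled shRUNX1, TIMELESS was at -0.44, TIPIN at -0.33 and CLSPN at -0.42, none of them called.

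The difference between these 2 contrasts, the RUNX1 by RUNX3 term itself, was not called for any gene (0.0%), so no checkpoint gene is shown to depend on the RUNX3 shRNA. Its estimates were -0.82 for CLSPN (limma adjusted p 0.252), -0.71 for CDC25A (0.318), -0.60 for WEE1 (0.297) and -0.41 for TIMELESS (0.365), all 4 with an unadjusted p under 0.05, against 6.61% of genes tested that were lower by that rule. Over all genes 1544 passed it. These estimates use the array labelled shRUNX1, on which RUNX3 was low. Under other settings and with each array left out, the term ran from -0.98 to -0.44 for CDC25A and -0.78 to -0.43 for WEE1. In the same fits it ran from -1.01 to -0.62 for CLSPN and -0.56 to -0.26 for TIMELESS. The count of 7 also depended on single arrays. It was 3 without shLuc and 3 without shRUNX2. Leaving out the triple array, shRUNX3, shRUNX1+shRUNX3 or shRUNX2+shRUNX3 leaves a side of the contrast with 1 array, and fewer genes or none were then called. The count stayed at 7 without the array labelled shRUNX1 or shRUNX1+shRUNX2.

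**Figure D2:**
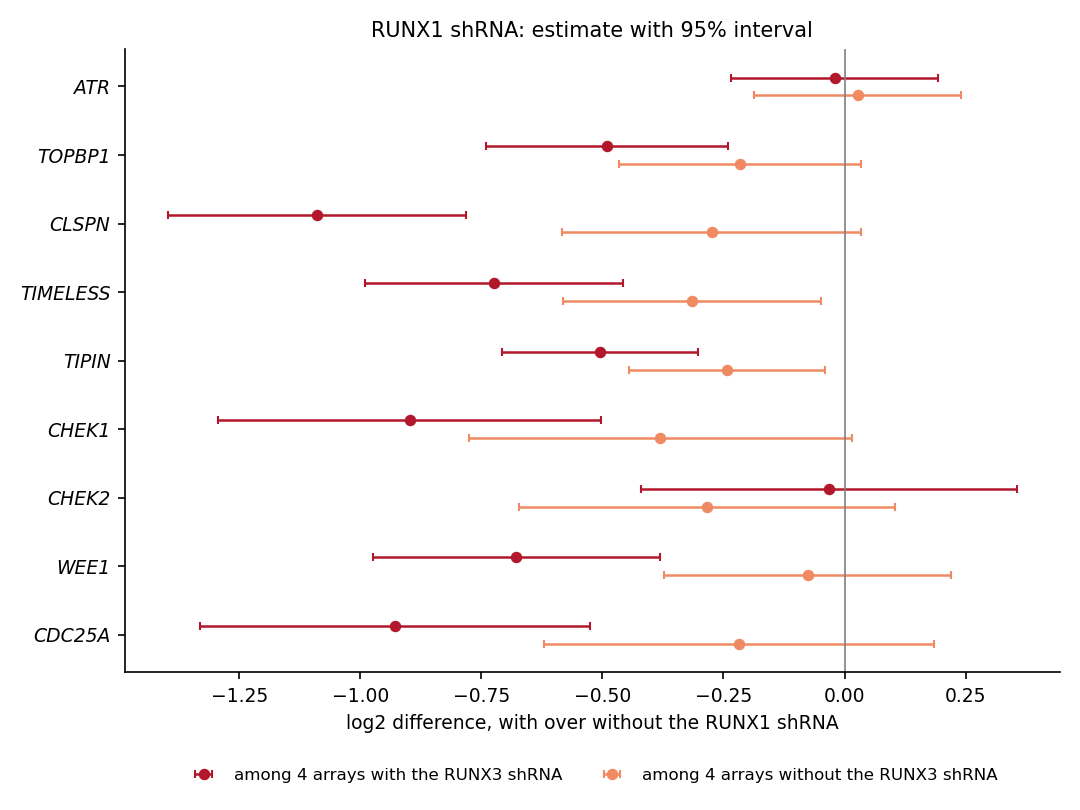
Estimated log2 difference with over without the RUNX1 shRNA (horizontal axis) for the 9 checkpoint genes, dark points among the 4 arrays with the RUNX3 shRNA and light points among the 4 without, with 95% intervals from the limma fit. The dark intervals of 7 genes lie below 0, CLSPN lowest at -1.09, whereas ATR (-0.02) and CHEK2 (-0.03) straddle 0. The dark and light intervals do not overlap in CLSPN and WEE1.

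Other genes of the checkpoint were taken from 6 lists by role, in which 46 of 50 genes were tested. In the contrast among the RUNX3 shRNA arrays, 18 of the 46 were called lower and 0 higher by limma, against 4.95% of all genes tested that were called lower. Of the genes of cyclin-dependent kinase control 7 of 9 were called. They were the S phase cyclins CCNE2 at -1.40 and CCNE1 at -1.19, the mitotic kinase CDK1 at -1.05 with its cyclin CCNB1 at -1.002, then CCNA2 at -0.95, CDC25B at -0.89 and CDK2 at -0.81. CCNE2 lay at 6.32 on shRUNX1+shRUNX3 and 6.63 on the triple array, against 7.88 on shRUNX3 and 7.87 on shRUNX2+shRUNX3. It was picked for the lowest estimate of the 46 in this contrast, so these levels are no further test. Of the fork and origin firing genes 6 of 10 were called. MCM10, a replication initiation factor, was at -1.28, the fork factor WDHD1 at -0.97, the origin kinase CDC7 at -0.95, the helicase subunit CDC45 at -0.90, DONSON at -0.87 and DBF4, which activates CDC7, at -0.65.

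In the remaining lists, counts of 1 or 2 stand beside the 4.95% of all genes tested that were called lower, and nothing is read from them. Of the clamp genes and their loader 1 of 5 was called, RHNO1, which binds the clamp and TOPBP1, at -0.46. Of RPA and the ATR partners 1 of 4 was called, RPA1, the large subunit of RPA, at -0.56. In the ATM arm 2 of 11 were called, the repair gene BRCA1 at -0.93 and the histone H2AX at -0.79, and among the genes of protein turnover 1 of 7, the mitotic kinase PLK1 at -0.84. CUL1 (0.27), RAD17 (0.25) and BTRC (0.24) had the highest estimates, none called. Across the arrays left out in turn the count of 18 ranged from 0 to 20, with 10 without shLuc, 10 without shRUNX2 and 0 without shRUNX3, shRUNX1+shRUNX3 or shRUNX2+shRUNX3. In the additive RUNX1 fit 0 of the 46 were called, with CCNE2 lowest at -0.81 and RAD17 highest at 0.17. For the RUNX2 shRNA CDC25C was lowest at -0.37 and RAD9B highest at 0.25, and for the RUNX3 shRNA CCNE2 was lowest at -0.65 and the fork remodelling gene HLTF highest at 0.29, none of them called.

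General cell cycle genes were low on the same arrays as the checkpoint genes. The mean of 25 S phase genes, none of them in the list above, relative to shLuc was at -1.001 on shRUNX1+shRUNX3, -0.85 on the triple array, -0.44 on shRUNX1+shRUNX2 and -0.17 on the array labelled shRUNX1. On shRUNX2+shRUNX3, shRUNX3 and shRUNX2 it was at -0.04, 0.01 and -0.08. The mean of the 9 checkpoint genes was -0.77 on shRUNX1+shRUNX3, -0.56 on the triple array, -0.36 on shRUNX1+shRUNX2 and -0.16 on the array labelled shRUNX1, and between -0.09 and -0.05 on the other 3. The mean of 23 genes of G2 and mitosis was at -1.05 on shRUNX1+shRUNX3, -0.88 on the triple array, -0.51 on shRUNX1+shRUNX2 and -0.09 on the array labelled shRUNX1, and between -0.20 and -0.10 on the other 3. In the contrast among the RUNX3 shRNA arrays, limma called 25 of the 25 S phase genes and 19 of the 23 genes of G2 and mitosis lower, against 4.95% of all genes tested.

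The checkpoint genes lay on either side of the S phase mean. On shRUNX1+shRUNX3, CHEK1 (-1.34), CLSPN (-1.30) and CDC25A (-1.21) were below the S phase mean of -1.001, whereas TIMELESS (-0.93), WEE1 (-0.80), TOPBP1 (-0.63), TIPIN (-0.44), CHEK2 (-0.24) and ATR (-0.06) were above it. On the array labelled shRUNX1, where the S phase mean was at -0.17, CHEK1 was at -0.56, CLSPN at -0.20 and CDC25A at 0.01. On shRUNX1+shRUNX2, CHEK1 (-0.46), CLSPN (-0.44) and CDC25A (-0.53) were near or below the mean of -0.44. Monocyte and macrophage markers averaged above shLuc on all 7 RUNX shRNA arrays. Of 7 listed, 5 were tested, with a mean difference from shLuc of 0.44 on shRUNX1+shRUNX3, 0.42 on the triple array, 0.77 on shRUNX1+shRUNX2, 0.37 on the array labelled shRUNX1, 0.13 on shRUNX2+shRUNX3, 0.06 on shRUNX3 and 0.47 on shRUNX2. The members differed. On shRUNX1+shRUNX3, CD68 was at 10.29 and ITGAX at 4.74, against 9.29 and 3.23 on shLuc. Those shLuc values are the lowest of the 11 arrays for both genes, and 3.23 is below the level filter. By contrast, S100A8 was at 5.66 and S100A9 at 4.69 on shRUNX1+shRUNX3, against 5.80 and 5.24 on shLuc. S100A8 and S100A9 were also below shLuc on the triple, shRUNX3 and shRUNX2+shRUNX3 arrays. CD14, a defining monocyte marker, stayed between 2.21 and 2.56 on all 11 arrays, below the level filter. The part of these other genes in the checkpoint differences was not tested, and in bulk RNA fewer cells of a type and less RNA per cell cannot be told apart.

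**Figure D3:**
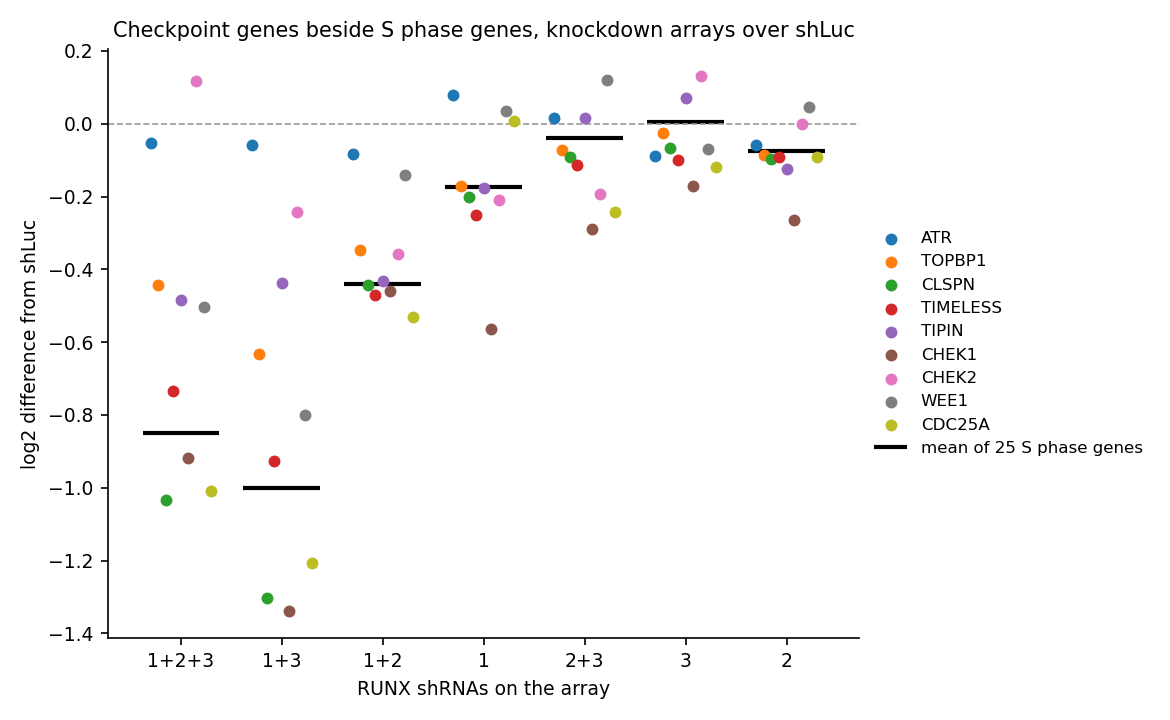
Log2 difference from shLuc (vertical axis) of the 9 checkpoint genes on the 7 RUNX knockdown arrays (horizontal axis, named by the shRNAs they carry), 1 point per gene and array, with black bars for the mean of 25 S phase genes. The bars sit at -0.85 and -1.001 on the triple and shRUNX1+shRUNX3 arrays, with CHEK1, CLSPN and CDC25A below them and ATR near 0 on every array.

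After 6 hours with the compounds the set looked different, with CHEK1 and CLSPN above DMSO and ATR below it on the Chb-M' array. ATR was at 6.17 with Chb-M' and 6.64 with Chb-50, against 6.64 with DMSO, and 6.17 is its lowest level on the 11 arrays. CLSPN was at 8.47 with Chb-M' and 8.28 with Chb-50, against 7.87 with DMSO. CDC25A was at 7.51 with Chb-M' and 7.13 with Chb-50, against 7.01 with DMSO. CHEK1 was at 6.98 with Chb-M' and 6.74 with Chb-50, against 6.72 with DMSO. Only ATR was thus lower by more than 0.1 with Chb-M', since WEE1 was at 7.37 and TOPBP1 at 8.46, against 7.40 and 8.49 with DMSO.

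TIMELESS was at 8.23 with Chb-M' and 8.27 with Chb-50, against 7.90 with DMSO, and TIPIN at 6.92 and 6.76, against 6.69. CHEK2 was at 5.32 with Chb-M' and 5.12 with Chb-50, against 5.13 with DMSO. The cluster shared by ATM and NPAT was at 6.88 with Chb-M' and 6.98 with Chb-50, against 7.21 with DMSO. Chb-50 had WEE1 at 7.14 and TOPBP1 at 8.39, so both genes were below DMSO with either compound, as was the shared cluster. That held for 2 of the 9 measured genes, against 33.8% of all genes tested, and nothing is read from it. CDKN1A, a p53 target that inhibits cyclin-dependent kinases, was at 7.36 with Chb-M' and 7.14 with Chb-50, against 5.91 with DMSO.

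No checkpoint gene was called in the compound comparisons, which have 1 array each and take their spread from the knockdown arrays. With Chb-M' over DMSO the limma fit called 74 of 12147 genes (0.609%). ATR was at -0.48 (95% interval -0.77 to -0.18, limma adjusted p 0.156) and was the only checkpoint gene with an unadjusted p under 0.05, as 13.9% of genes tested had. The interval for CLSPN, at 0.60, ran from -0.22 to 1.42 and included 0. This spread is what additive shRNA terms leave on the knockdown arrays. A RUNX1 by RUNX3 departure, estimated at -0.82 for CLSPN and -0.05 for ATR, therefore counts as spread and widens the interval of CLSPN more. CDC25A at 0.51, TIMELESS at 0.33, CHEK1 at 0.26, TIPIN at 0.23 and CHEK2 at 0.19 also had intervals that included 0. The median of the 9 estimates was 0.23 with Chb-M' and 0.02 with Chb-50. CLSPN was the only checkpoint gene past 1.5-fold with Chb-M', against 5.46% of genes tested, and none was past 1.5-fold with Chb-50, against 3.37%. With Chb-50 over DMSO limma called 0 genes (0.0%), and the 1114 genes (9.17%) whose unadjusted p was under 0.05 included no checkpoint gene.

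The 2 compounds were compared directly at the same dose and time, both measured against the same DMSO array above. With Chb-M' over Chb-50, ATR was at -0.48 (95% interval -0.77 to -0.18, limma adjusted p 0.478), and 0 genes were called (0.0%). ATR had the same value on the DMSO and Chb-50 arrays, so this repeats its difference from DMSO and is not a second observation. ATR was among 869 genes (7.15%) whose unadjusted p was under 0.05. For the other 8 checkpoint genes the interval included 0. The widest of these was for CLSPN, at 0.18 with an interval from -0.64 to 1.00, and the narrowest for TIPIN, at 0.16 with an interval from -0.20 to 0.52. These intervals allow differences of either sign, and the compounds are not shown to act alike on these genes.

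**Figure D4:**
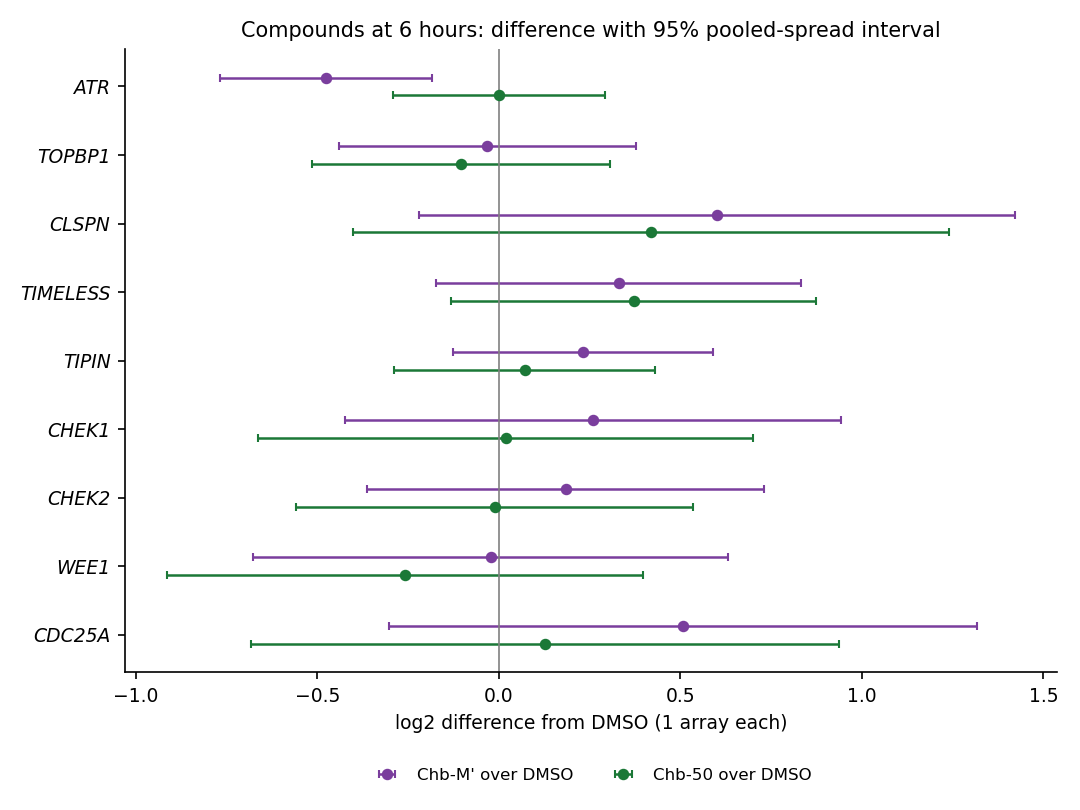
Estimated log2 difference (horizontal axis) of the 9 checkpoint genes on the Chb-M' array and the Chb-50 array, each over the DMSO array, with 95% intervals whose spread comes from the knockdown arrays. The Chb-M' interval for ATR lies below 0 (-0.77 to -0.18), and every other interval includes 0.

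The 2 cell cycle lists lay on opposite sides of DMSO with both compounds. The S phase mean was 0.30 above DMSO with Chb-M' and 0.19 with Chb-50, and the mean of G2 and mitosis genes was at -0.69 with Chb-M' and -0.51 with Chb-50. In the limma fits none of these list genes was called. Their part in the CLSPN, CDC25A and TIMELESS values was not tested. Among the other checkpoint genes, CCNE2 was at 8.39 with Chb-M' and 8.09 with Chb-50, against 7.37 with DMSO, and CCNE1 at 8.17 and 7.88, against 7.37, while CCNB1 was at 6.82 and 6.88, against 7.73. MCM10 was at 8.98 and 8.78, against 8.44. None of these 4 was called.

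Under the assumption that the single Chb-M' and DMSO arrays vary like the knockdown arrays, the pooled limma fit put 2 of the 46 past the threshold with Chb-M', against 0.609% of all genes tested. They were ZRANB3, a fork remodelling enzyme, and BTRC, which marks claspin and WEE1 for degradation. ZRANB3 was at 4.42 with Chb-M' and 4.94 with Chb-50, against 5.66 with DMSO, a Chb-M' difference of -1.24 (limma adjusted p 0.0331). BTRC was at 5.24 with Chb-M' and 5.65 with Chb-50, against 6.25 with DMSO, a Chb-M' difference of -1.02 (limma adjusted p 0.0486). Both were also below DMSO with Chb-50, at -0.72 for ZRANB3 and -0.60 for BTRC, neither past the threshold. With no replicate of either array these p-values are not a check on the compound itself. The Chb-M' calls ended without the level filter (limma adjusted p 0.0537 for ZRANB3 and 0.0741 for BTRC), for BTRC with the mean of a gene's clusters (0.0512), and without most single knockdown arrays, with adjusted p up to 0.0864 for ZRANB3 and 0.117 for BTRC.

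Gene span was set beside the Chb-M' differences. In RefSeq (GRCh38.p14) ATR spans 129.5 kb on chromosome 3 (142449235 to 142578733), ZRANB3 334.3 kb on chromosome 2 and BTRC 203.3 kb on chromosome 10. The other genes of these lists over 100 kb were FBXW11 (145.1 kb), BRCA1 (126.0 kb), TP53BP1 (107.6 kb) and CUL1 (103.4 kb). With Chb-M' they were at -0.16, 0.16, -0.15 and -0.23. Besides ZRANB3 and BTRC, the list genes lower than ATR were CCNB1 (11.1 kb), PLK1 (11.5 kb) and RAD9B (31.2 kb). Their differences were -0.91, -0.89 and -0.63. Both selections were made after the values were seen. The RAD9B level with Chb-M' was 3.63, below the level filter, so its difference is less sure. The other 8 checkpoint genes span 16.3 kb (WEE1) to 61.7 kb (TOPBP1), with CHEK1 at 56.0 kb and CLSPN at 49.8 kb. Over all protein-coding genes tested, the median difference with Chb-M' over DMSO was 0.09 for 4282 genes under 20 kb, 0.04 for those of 20 to 50 kb, -0.05 for 50 to 100 kb, -0.19 for 100 to 200 kb and -0.40 for 545 genes of 200 kb and over. With Chb-50 over DMSO the same medians were 0.05, 0.01, -0.04, -0.11 and -0.25. ATR at -0.48 was lower than the median of its own span class, in which 10.5% of 1066 genes were at or below it. With Chb-50 ATR was at 0.00, above that class's median of -0.11. The part of gene span in the ATR value was not tested.

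**Figure D5:**
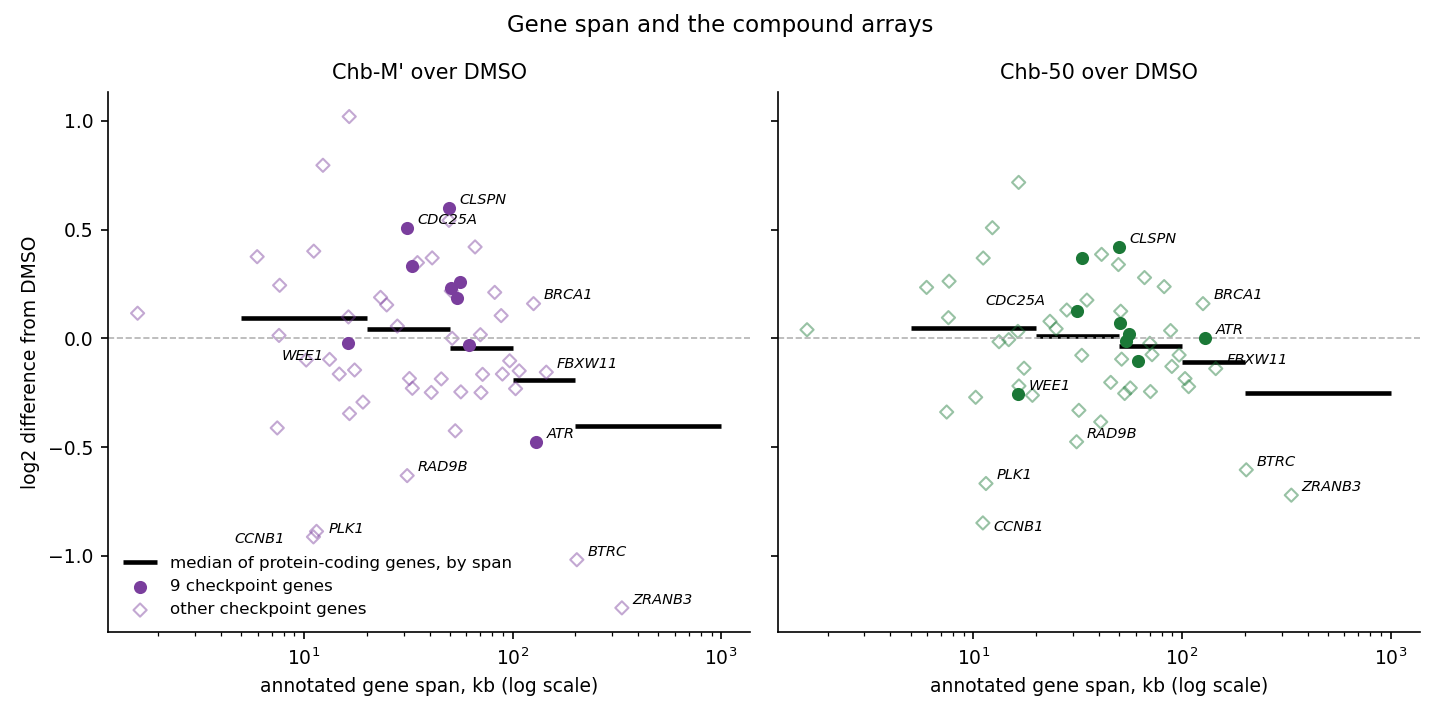
Log2 difference from DMSO (vertical axis) against annotated gene span in kb (horizontal axis, log scale), with Chb-M' on the left and Chb-50 on the right. Filled points are the 9 checkpoint genes, open diamonds are the other checkpoint genes with an annotated span, and black bars are medians of all protein-coding genes tested by span, where the shortest and longest classes have open outer ends. The bars step down to -0.40 with Chb-M' and -0.25 with Chb-50, and ATR lies at -0.48 with Chb-M' and at 0.00 with Chb-50.

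Over the 11 arrays, the genes with the level pattern most like CLSPN were EXO1, CCNE2 and FEN1, each with a Pearson correlation of 0.99. Those most like CHEK1 were HELLS at 0.96, MCM4 at 0.96 and ATAD2 at 0.95. CHEK2 had no neighbours as close, with ADRA2C at 0.89, NXT1 at 0.85 and RAE1 at 0.84. The 11 points share 2 experiments and a low pair of arrays, so these values only describe this set. On the arrays, the CHEK1 level ran from 5.88 on shRUNX1+shRUNX3 to 7.22 on shLuc, and the CLSPN level from 6.96 on shRUNX1+shRUNX3 to 8.47 with Chb-M'.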

How the data were processed

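The authors' deposited table holds log2 levels for 53617 transcript clusters on 11 arrays. The submitters' processing notes name RMA, Transcriptome Analysis Console 1.0 and Affymetrix Expression Console 1.3.1 without saying what each did. That the scale is log2 was judged from its range of 0.48 to 12.74. For the array annotation no genome build is stated in the labels. Precision is limited by the number of arrays, and how far a signal stood above background is unknown.

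Of the clusters, 23558 carried 1 symbol, and the cluster with the highest mean level stood for a gene. A gene was tested if its highest level was at least 3.80, the median of these clusters. Limma 3.58.1 in R 4.3.3 was run over all 12147 genes with Benjamini-Hochberg adjustment. The knockdown fit used 8 arrays with 3 additive shRNA terms, a further fit added the RUNX1 by RUNX3 product, and the compound fit used 11 arrays with a coefficient for each compound array and DMSO. The pipeline was tested on simulated data.

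The 10 genes and all lists were chosen with earlier results of these data known. Named genes were the 10, the 3 highest and 3 lowest and any called of the other checkpoint genes in a comparison, and the 3 genes most correlated with CHEK1, CLSPN and CHEK2. For ATM that rule could not be applied. A few that it names with small estimates are not printed. Alternatives were the level filter, array scaling, an intensity trend, the cluster rule, protein-coding genes only, added arrays and each array left out.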

Additional observations from a re-analysis of the deposited data

Results flagged for a closer look

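Among the 4 arrays without the RUNX2 shRNA, the shRUNX1+shRUNX3 array lay far below the other 3 in CDC25A (gap over range 0.898), WEE1 (0.876) and CLSPN (0.845). Its levels were 6.35 for CDC25A, 6.76 for WEE1 and 6.96 for CLSPN. The 4 arrays differ in their shRNAs and are not replicates, and chance flags about 1 in 20 such groups. Every checkpoint gene was screened with and without each shRNA. A few flags are near what chance brings, and nothing is read from them.

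Some small shRNA differences had opposite signs on each side of another shRNA. Every checkpoint gene was screened for each pair of shRNAs, and nothing is read from these. The CHEK1 difference with the RUNX2 shRNA was positive in both pairs with the RUNX1 shRNA (0.10 and 0.42) and negative in both without it (-0.26 and -0.12), a gap of 0.45. The TIPIN difference with the RUNX3 shRNA was negative in both pairs with the RUNX1 shRNA (-0.26 and -0.05) and positive in both without it (0.07 and 0.14), a gap of -0.26. That TIPIN gap is the RUNX1 by RUNX3 term, which was not called for TIPIN (limma adjusted p 0.427). In ATR the gap was -0.10 for the RUNX1 shRNA with and without the RUNX2 shRNA. For the RUNX2 and RUNX3 shRNAs it was 0.17, the same gap whichever shRNA is taken first. The CHEK1 and ATR gaps were not tested.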

How the results depend on the processing

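No estimate called in the knockdown or compound fits changed sign under any alternative. The RUNX1 shRNA called 0 of the 9 checkpoint genes under 9 alternatives and 0 to 6 with each array left out. The contrast among the RUNX3 shRNA arrays called 7, with 4 when no level filter was applied and 22109 genes were tested, and 0 to 7 with each array left out. The other checkpoint genes called there ranged from 0 to 20 with each array left out. The RUNX3 shRNA among arrays with the RUNX1 shRNA, a contrast chosen after seeing the data, called 0, but 4 under the stricter level filter, 4 with the intensity trend and 1 among protein-coding genes only. With Chb-M' 0 checkpoint genes passed 2-fold, 1 passed 1.5-fold and 0 passed 3-fold. The adjusted p of ATR with Chb-M' ranged from 0.0911 to 0.253. CHEK2 fell below the stricter level filter of 6.08. The causes were not tested, beyond fewer genes or arrays where an alternative leaves them out. No paired analysis was possible because every label carries replicate number 1, so no replicate block could be fitted. Arrays matched on the other shRNAs are compared through the additive terms.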
